A study of Mus musculus with 6 samples.

Results

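The transcripts of 10 AP-1 and immediate early factors were followed by RNA-seq in a murine malignant mesothelioma line in which the chromatin protein HMGB1 was silenced. The 10 genes are Fos, Fosb, Fosl1, Fosl2, Jun, Junb, Jund, Egr1, Ier2 and Myc, taken by gene symbol, and 9 of them stood among the 12134 genes analysed. Fos was not analysed here. All 9 had a mean of at least 0.5 RPKM (reads per kilobase of gene, scaled to library size) over the libraries, so all 9 belonged to the 11669 genes tested. Fosb reached that mean only through shHMGB1, where it averaged 0.893 RPKM, against 0.416 RPKM in shCTRL.

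AB22 cells are a mouse mesothelioma line. Per the labels' protocols, the shHMGB1 group was infected with lentivirus carrying a pTRIPZ hairpin against Hmgb1, and the shCTRL group with a pTRIPZ control hairpin, each at a multiplicity of infection of 20. Both groups were selected with puromycin at 4 µg/mL, grown in tetracycline-free serum and 5% oxygen, and used 7 to 10 days after 1 µM doxycycline had switched on the hairpin. RNA came from cells synchronized in G1, the labels give these libraries no radiation dose, and each group had 3 biological replicates, A, B and C. Both groups thus share the vector, puromycin, doxycycline, low oxygen and the G1 block. A single hairpin is named for the silencing. The labels do not tie a replicate to an infection of its own, and p-values therefore describe the spread of these cultures only.

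AP-1 is a dimer of basic leucine zipper proteins. Jun proteins pair with each other or with Fos proteins, whereas Fos proteins need a Jun or another partner to bind DNA. Immediate early genes such as Fos, Egr1 and Ier2 are transcribed within minutes of a growth factor or stress signal from factors already present in the cell, chiefly through the MAP kinases, while Fosl1, Fosl2 and Jund form a more lasting AP-1 pool in many cultured cells.

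The promoters of Fosb, Junb and Jun are shown because Fosb was the member whose groups did not overlap, Junb had the largest negative fold change of the 9 genes, and the Jun promoter is known for an AP-1-like element through which Jun acts on its own gene. Each run is 120 bases of sequence from RefSeq on GRCm38.p6, read 5′ to 3′ on the gene's minus strand and ending 1 base before the RefSeq start site. Capitals mark matches to the motifs named in the next paragraph.
Fosb (chr7:19310046-19310165): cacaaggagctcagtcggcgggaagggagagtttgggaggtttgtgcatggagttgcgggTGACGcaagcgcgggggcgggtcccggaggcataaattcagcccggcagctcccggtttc
Junb (chr8:84978749-84978868): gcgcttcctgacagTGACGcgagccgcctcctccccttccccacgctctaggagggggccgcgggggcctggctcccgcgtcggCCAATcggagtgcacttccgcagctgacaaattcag
Jun (chr4:95052223-95052342): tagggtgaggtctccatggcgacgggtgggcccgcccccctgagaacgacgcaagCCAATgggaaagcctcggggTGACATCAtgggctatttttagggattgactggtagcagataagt

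RefSeq windows of 300 bases, 250 before and 50 after the start site, were matched for 5 listed members, namely Fosb, Fosl2, Jun, Junb and Jund. Both strands were searched. The AP-1-like element TGACATCA lay at positions -45 to -38 of Jun and was held by 3.62% of all 32851 windows. The short element TGACG, which is also contained in the cAMP response element TGACGTCA, lay at -60 to -56 of Fosb and -106 to -102 of Junb, and 20.8% of all windows held it. CCAAT lay at -65 to -61 of Jun and -36 to -32 of Junb, against 37.4% of all windows, and TATAAA at 1 to 6 of Junb, against 13.6%. Positions count from the RefSeq start site. For Junb, GENCODE M21 puts the 5′ end of the gene at 84978718, downstream of that site and of the TATAAA match. Matches to TGACTCA (5.2% of windows), TGACGTCA (1.79%), CACGTG (7.15%) and the CArG box (1.63%) were found in 0 of the 5 windows. These are letter matches only and describe no binding.

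Reads over the listed genes came to 12870148 in the shallowest library (shCTRL B) and 23430717 in the deepest (shCTRL C). Reads of ribosomal RNA type, the sum of AY036118 and Rn18s-rs5, made up 3.88%, 1.1% and 0.198% of reads in shHMGB1 A, B and C, against 9.03%, 20.9% and 0.915% in shCTRL A, B and C. Gm26917, the most abundant gene of shHMGB1 C at 4.88% of its reads, is not in that sum. Whether its reads are of ribosomal RNA type was not tested, which limits the ribosomal share used as a covariate below. The hairpin's target Hmgb1 averaged 5.59 ± 1.70 RPKM in shHMGB1 and 36.9 ± 7.43 RPKM in shCTRL (SD, n = 3 each) and fell by 2.73 on the log2 scale (SE 0.26, limma with Benjamini-Hochberg adjustment, adjusted p = 0.0269). Of 11 mesothelial markers, 4 were listed (Msln, Pdpn, Bnc1 and Efemp1), with summed levels of 421 to 554 RPKM in shHMGB1 and 552 to 620 RPKM in shCTRL. Efemp1 made up most of that sum (428 ± 62.3 RPKM in shHMGB1 and 476 ± 40.6 RPKM in shCTRL), and Msln was at 32.9 ± 5.66 RPKM in shHMGB1 and 67.2 ± 13.6 RPKM in shCTRL, with Bnc1 at 2.45 ± 0.406 RPKM in shHMGB1 and 3.98 ± 0.399 RPKM in shCTRL (SD, n = 3 each). The defining markers Wt1, Upk3b, Calb2, Krt8, Krt18 and Krt19 were not among the genes analysed. All 6 fibroblast markers were listed and summed to 1085 to 2411 RPKM in shHMGB1 and 894 to 1565 RPKM in shCTRL. Most of that sum was Col1a1 (582 ± 452 RPKM in shHMGB1 and 326 ± 126 RPKM in shCTRL) and Col1a2 (994 ± 215 RPKM in shHMGB1 and 844 ± 205 RPKM in shCTRL). Of the other fibroblast markers, Dcn was at 9.90 ± 2.53 RPKM in shHMGB1 and 3.71 ± 1.35 RPKM in shCTRL, Lum at 3.11 ± 1.01 RPKM in shHMGB1 and 0.526 ± 0.190 RPKM in shCTRL, and Pdgfra, in the other direction, at 18.6 ± 5.92 RPKM in shHMGB1 and 27.5 ± 5.92 RPKM in shCTRL. One of 7 leukocyte markers (Lyz2, 2.31 to 2.71 RPKM in shHMGB1 and 1.97 to 2.56 in shCTRL) and 1 of 4 endothelial markers (Kdr, 0.495 to 3.60 RPKM in shHMGB1 and 1.04 to 2.78 in shCTRL) were listed. The part of these markers in the results below was not tested, and in bulk RNA fewer cells of a type and less RNA per cell cannot be told apart.

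No AP-1 or immediate early factor passed the test between shHMGB1 and shCTRL. Adjusted p-values of the 9 genes were 0.507 to 0.997 (limma on log2(RPKM + 0.1), Benjamini-Hochberg over 11669 genes), and voom on recovered reads also called 0 of 9. Over all genes, 3 passed the adjusted threshold of 0.05, or 0.0257%, with 0 higher and 3 lower, Hmgb1 among them. At an unadjusted p under 0.05 the count was 1 of 9 members, Fosb, in limma and also in voom, against 923 of 11669 genes, or 7.91%, in limma. That member count was 3 without shHMGB1 A (Fosb, Junb and Myc), 4 with array quality weights (Fosb, Fosl1, Junb and Egr1) and 2 with the replicate block (Fosb and Junb). In the same order, those fits put 8, 21 and 7 of all genes past the adjusted threshold, against 3 in the main fit. The share of all genes at an unadjusted p under 0.05 is not given for them. Their member counts therefore have no background to be read against. Fold changes were positive for 4 members and negative for 5, and their median was 0.00 on the log2 scale, beside 0.01 for all genes.

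**Figure D1:**
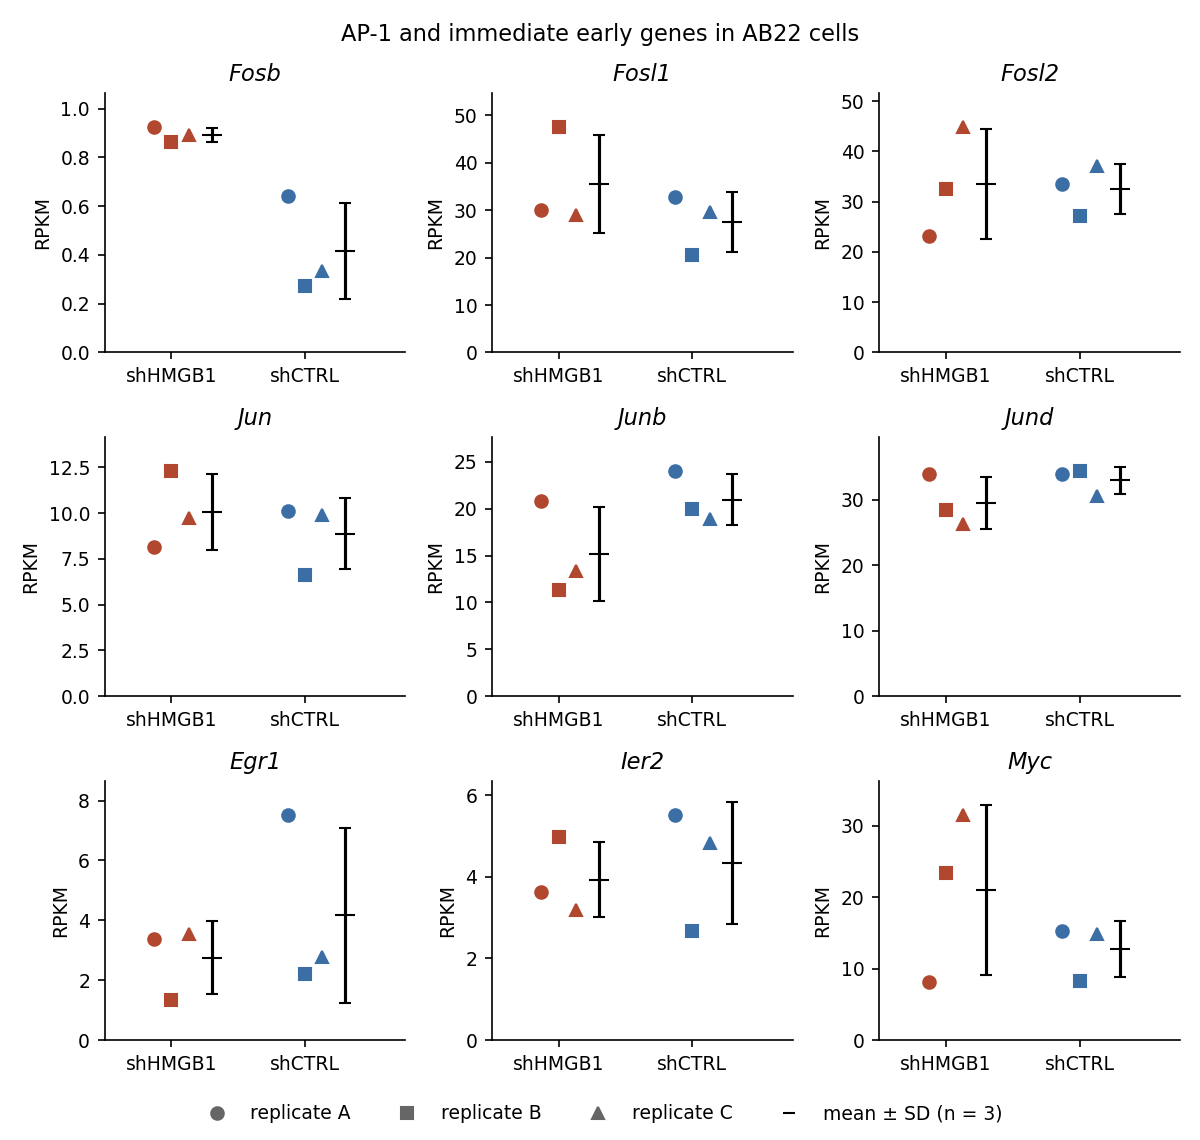
Level of each of the 9 factors (RPKM, linear axes that start at 0) in every library, with shHMGB1 left of shCTRL in each panel, symbols for replicates A, B and C and bars for the mean ± SD (n = 3). Fosb is the panel in which the groups do not overlap, and Egr1 and Myc spread most within a group.

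Among the Fos-family genes, Fosb was the lowest and the most separated between groups. FosB is an inducible AP-1 subunit, and its gene lies at chr7:19302696-19310051 on the minus strand (GENCODE M21, GRCm38, as for all genes below), with transcripts of 1 to 5 exons. Fosb stood at 0.924, 0.865 and 0.891 RPKM in shHMGB1 A, B and C, against 0.641, 0.271 and 0.335 RPKM in shCTRL A, B and C. Every shHMGB1 library was above every shCTRL library. Among all tested genes, 6.90% were likewise higher without overlap and 7.07% lower without overlap, and 3.78% were higher with an unadjusted p under 0.05. Fosb was among the tested genes only through its shHMGB1 level, so its separation is not independent of that filter. With no filter on level its log2 fold change was also 1.01, with an adjusted p of 0.466 in limma. The log2 fold change of Fosb was 1.01 ± 0.31 (SE; 95% interval 0.28 to 1.74), or 2.02-fold, with an unadjusted p of 0.0127 and an adjusted p of 0.507 in limma.

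The Fosb levels rest on few reads. They come from 68, 72 and 50 reads in shHMGB1 and 33, 11 and 32 reads in shCTRL, and only 2.02% of tested genes were at or below its mean level. Exact Poisson 95% intervals, which cover counting error only, ran over 0.715 to 1.17, 0.674 to 1.08 and 0.659 to 1.17 RPKM in shHMGB1 A, B and C. They ran over 0.438 to 0.894, 0.134 to 0.479 and 0.226 to 0.467 RPKM in shCTRL A, B and C. The interval of shCTRL A thus overlaps all 3 shHMGB1 intervals, and those of shCTRL B and C overlap none. The unadjusted p of Fosb stayed under 0.05 in all 18 alternative fits that tested it, including those without shCTRL B (log2 fold change 0.81) and with the ribosomal share as a covariate (1.04). With 1 RPKM added in place of 0.1 the log2 fold change was 0.43, since the level itself is below 1 RPKM.

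Fosl1, which encodes Fra-1, an AP-1 subunit tied to motility and invasion in many tumour lines, lies at chr19:5447547-5455946 on the plus strand. Its level was 30.0, 47.5 and 29.0 RPKM in shHMGB1 A, B and C and 32.7, 20.5 and 29.6 RPKM in shCTRL A, B and C. The groups overlapped, with shHMGB1 B the highest and shCTRL B the lowest library. The log2 fold change was 0.35 ± 0.26 (SE), with an interval of -0.24 to 0.94 and an adjusted p of 0.742 in limma. Ccdc85b, on the other strand, shares 1163 exonic bases with Fosl1 and stood at 71.8 ± 22.1 RPKM in shHMGB1 and 47.0 ± 14.0 RPKM in shCTRL (SD, n = 3 each). The labels do not say whether the counting used strand, and without strand the reads of Fosl1 and Ccdc85b in their shared bases cannot be told apart. The shared bases are those of GENCODE M21, whose Fosl1 exons cover 2033 bases. The length behind the deposited Fosl1 values is 1707 bases, so the overlap within the counted bases is not known.

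Fosl2, the gene of Fra-2, lies at chr5:32135801-32157842 on the plus strand. It had 23.1, 32.6 and 44.8 RPKM in shHMGB1 A, B and C, against 33.6, 27.2 and 37.0 RPKM in shCTRL A, B and C. The lowest and the highest library were both shHMGB1, so the shCTRL values lay inside the shHMGB1 range. Its estimate on the log2 scale was 0.00 ± 0.25 (SE), with an interval of -0.59 to 0.59 and an adjusted p of 0.997 in limma. Between 1932 and 6189 reads lay on the gene in each library.

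The Jun-family genes gave a negative fold change for Junb and Jund and a positive one for Jun, with overlapping groups in each case. Jun, at chr4:95049034-95052222 on the minus strand with 1 exon, encodes an AP-1 subunit that pairs with Fos or other Jun proteins. Its levels were 8.16, 12.3 and 9.73 RPKM in shHMGB1 A, B and C and 10.1, 6.64 and 9.90 RPKM in shCTRL A, B and C. The highest library was shHMGB1 B, the lowest shCTRL B, and the other 4 lay between 8.16 and 10.1 RPKM. Jun's estimate was 0.18 ± 0.23 on the log2 scale (SE), with an interval of -0.35 to 0.72 and an adjusted p of 0.804 in limma, and it turned to -0.01 both without shCTRL B and with the ribosomal share as a covariate.

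Junb encodes a subunit that often restrains Jun and growth, and its gene lies at chr8:84974484-84978718 on the minus strand. It stood at 20.8, 11.3 and 13.3 RPKM in shHMGB1 A, B and C, against 24.0, 20.0 and 18.9 RPKM in shCTRL A, B and C. Libraries B and C of shHMGB1 were below all of shCTRL, and shHMGB1 A lay within the shCTRL range. Junb thus had a log2 fold change of -0.51 ± 0.24 (SE; interval -1.07 to 0.05), with an unadjusted p of 0.0681 and an adjusted p of 0.663 in limma. Without shHMGB1 A it was -0.76, with an adjusted p of 0.156, and without shHMGB1 B it was -0.33, with an adjusted p of 0.962. Over the 19 alternatives run, -0.76 to -0.15 was its range. Junb shares 173 exonic bases with Prdx2 on the other strand, which stood at 123 ± 25.3 RPKM in shHMGB1 and 141 ± 21.1 RPKM in shCTRL (SD, n = 3 each). For Junb too, the GENCODE M21 exons, at 2301 bases, differ from the length behind the deposited values, 1809 bases.

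Jund, the broadly and steadily expressed Jun protein's gene, at chr8:70698949-70700616 on the plus strand with 1 exon, varied least of the 9. Its levels were 33.9, 28.4 and 26.3 RPKM in shHMGB1 A, B and C and 33.9, 34.4 and 30.6 RPKM in shCTRL A, B and C. The highest library was 1.30-fold the lowest, and its within-group SD of 0.15 on the log2 scale was at or above that of 15.5% of tested genes. The log2 fold change of -0.16 ± 0.15 (SE) had an interval of -0.52 to 0.19 (adjusted p = 0.775 in limma). Gm11175, not among the genes analysed, shares 877 exonic bases with Jund on the other strand, and Junos shares 232 with Jun.

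**Figure D2:**
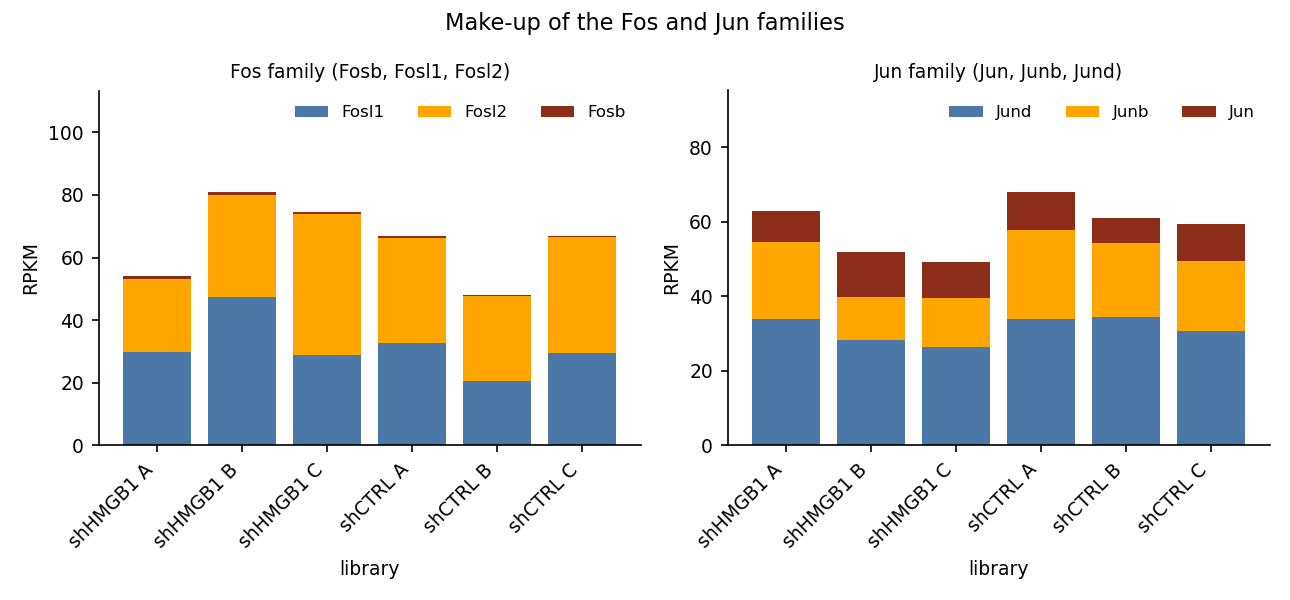
Summed RPKM of the Fos-family genes (Fosb, Fosl1, Fosl2) and of the Jun-family genes (Jun, Junb, Jund) in each library, stacked by gene, with the 3 shHMGB1 libraries left of the 3 shCTRL libraries. Fosl1 and Fosl2 make up nearly all of the Fos-family sum, and Jund is the tallest part of the Jun-family sum in every library.

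Summed over the family, the Fos-family level was 54.0, 81.0 and 74.6 RPKM in shHMGB1 A, B and C and 67.0, 47.9 and 67.0 RPKM in shCTRL A, B and C. The Jun-family sum was 62.8, 51.9 and 49.3 RPKM in shHMGB1 and 68.0, 61.0 and 59.3 RPKM in shCTRL. Both sums overlapped between groups. Fosb made up 1.32% ± 0.340 of the Fos-family sum in shHMGB1 and 0.674% ± 0.247 in shCTRL (SD, n = 3 each), so the one separated gene was a small part of the measured Fos-family RNA. Fosl1 and Fosl2 shared the rest, with Fosl1 at 38.8% to 58.7% in shHMGB1 and 42.7% to 48.8% in shCTRL.

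Jund held 53.4% to 54.6% of the Jun-family sum in shHMGB1 and 49.8% to 56.3% in shCTRL. The ratio of the Fos-family to the Jun-family sum was 0.860, 1.56 and 1.51 in shHMGB1 and 0.985, 0.785 and 1.13 in shCTRL. Libraries B and C of shHMGB1 were the highest, and shHMGB1 A fell inside the shCTRL range. The ratio of Junb to Jun was 2.55, 0.921 and 1.36 in shHMGB1 A, B and C, against 2.37, 3.02 and 1.90 in shCTRL A, B and C, with shHMGB1 B and C below all shCTRL libraries and shHMGB1 A within their range. These sums and ratios are descriptions and were given no test. They also carry the limit of the bases that Fosl1, Jun, Junb and Jund share with genes on the other strand.

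Egr1 and Ier2 are immediate early genes outside AP-1. Egr1 encodes a zinc finger factor induced through SRF and MAP kinases, and its gene lies at chr18:34859823-34864984 on the plus strand. It had 3.37, 1.34 and 3.54 RPKM in shHMGB1 A, B and C, against 7.52, 2.20 and 2.77 RPKM in shCTRL A, B and C. The single highest library, shCTRL A, was 5.64-fold the lowest, shHMGB1 B, and the groups overlapped. Its within-group SD was 0.84 on the log2 scale, at or above that of 97.3% of tested genes. The log2 fold change of -0.49 ± 0.52 (SE) had an interval of -1.70 to 0.72 (adjusted p = 0.783 in limma), and it was 0.03 without shCTRL A and -0.05 without shHMGB1 B. It was -0.83 without shCTRL B and -1.21 with array quality weights, where the adjusted p was 0.287.

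Ier2, a small nuclear protein's gene at chr8:84661331-84662852 on the minus strand with 1 exon, had 3.64, 4.97 and 3.19 RPKM in shHMGB1 A, B and C and 5.52, 2.67 and 4.84 RPKM in shCTRL A, B and C. The lowest and the highest library were both shCTRL. For Ier2 the log2 estimate was -0.10 ± 0.31 (SE), with an interval of -0.81 to 0.61 and an adjusted p of 0.913 in limma, on 44 to 188 reads per library. Its sign turned in 5 of the 18 alternatives that tested it.

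Myc, whose protein pairs with MAX at E-boxes and drives ribosome and nucleotide synthesis, lies at chr15:61985391-61990374 on the plus strand. It stood at 8.06, 23.4 and 31.5 RPKM in shHMGB1 A, B and C, against 15.2, 8.20 and 14.9 RPKM in shCTRL A, B and C. Libraries B and C of shHMGB1 were above all of shCTRL, but shHMGB1 A was the lowest of all 6. Its within-group SD of 0.81 on the log2 scale was at or above that of 96.6% of tested genes. On the log2 scale Myc differed by 0.56 ± 0.49 (SE), with an interval of -0.58 to 1.70 and an adjusted p of 0.767 in limma. Leaving out shHMGB1 A gave 1.14 (adjusted p = 0.171), leaving out shHMGB1 C gave 0.16, and leaving out shCTRL B gave 0.27, while the fit with the ribosomal share as a covariate gave -0.16.

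**Figure D3:**
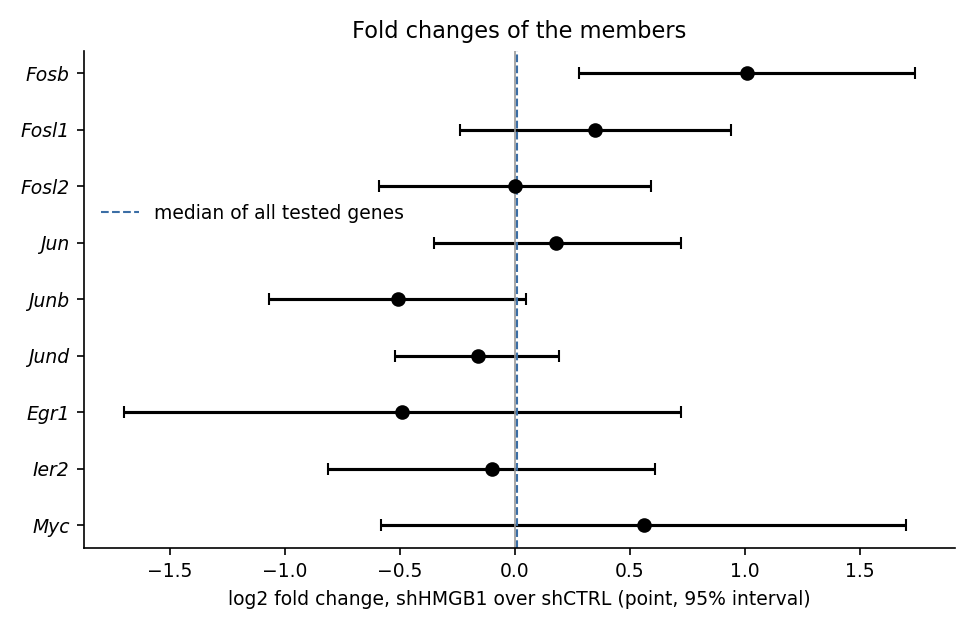
Log2 fold change, shHMGB1 over shCTRL, of the 9 factors (points, with 95% limma intervals), with a dashed line at the median of all tested genes. The interval of Fosb, 0.28 to 1.74, is the one that does not reach 0, and Egr1 and Myc have the widest intervals.

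The order of levels, all per kilobase, was led by Fosl1, Fosl2 and Jund in both groups. Fosl1, Jun, Junb and Jund share exonic bases with genes on the other strand. Whether the counting used strand is not known, which limits the places of these genes. In shHMGB1 the means ran Fosl1 35.5, Fosl2 33.5, Jund 29.5, Myc 21.0, Junb 15.1, Jun 10.1, Ier2 3.93, Egr1 2.75 and Fosb 0.893 RPKM. The first 6 overlapped from neighbour to neighbour, and the order was clear of replicate spread between Jun and Ier2 and between Egr1 and Fosb. In shCTRL they ran Jund 32.9, Fosl2 32.6, Fosl1 27.6, Junb 21.0, Myc 12.7, Jun 8.89, Ier2 4.34, Egr1 4.16 and Fosb 0.416 RPKM. There the ranges of neighbours were apart between Junb and Myc, between Jun and Ier2, and between Egr1 and Fosb. The difference between groups in the places of Junb and Myc was not tested on its own.

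Spread within a group was wide for most factors. The median within-group SD was 0.37 on the log2 scale for the 9 members, beside 0.26 for all tested genes. Taken as deviations from each gene's own mean over the 6 libraries, the member median was -0.03, 0.30 and 0.06 in shHMGB1 A, B and C and 0.12, -0.48 and 0.00 in shCTRL A, B and C. The median of all genes was within 0.02 of 0 in each library. The shCTRL B library, the shallowest and the one with 20.9% ribosomal reads, was the lowest for 4 of 9 members (Fosb, Fosl1, Jun and Ier2) and the highest for 1 (Jund). The part of that ribosomal share in these levels was tested only as a covariate, which left 0 of 9 members past the threshold and moved the member median to -0.16. On the log2 scale it gave Fosb 1.04, Fosl1 0.27, Fosl2 -0.38, Jun -0.01, Junb -0.30, Jund -0.01, Egr1 -0.50, Ier2 -0.22 and Myc -0.16.

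**Figure D4:**
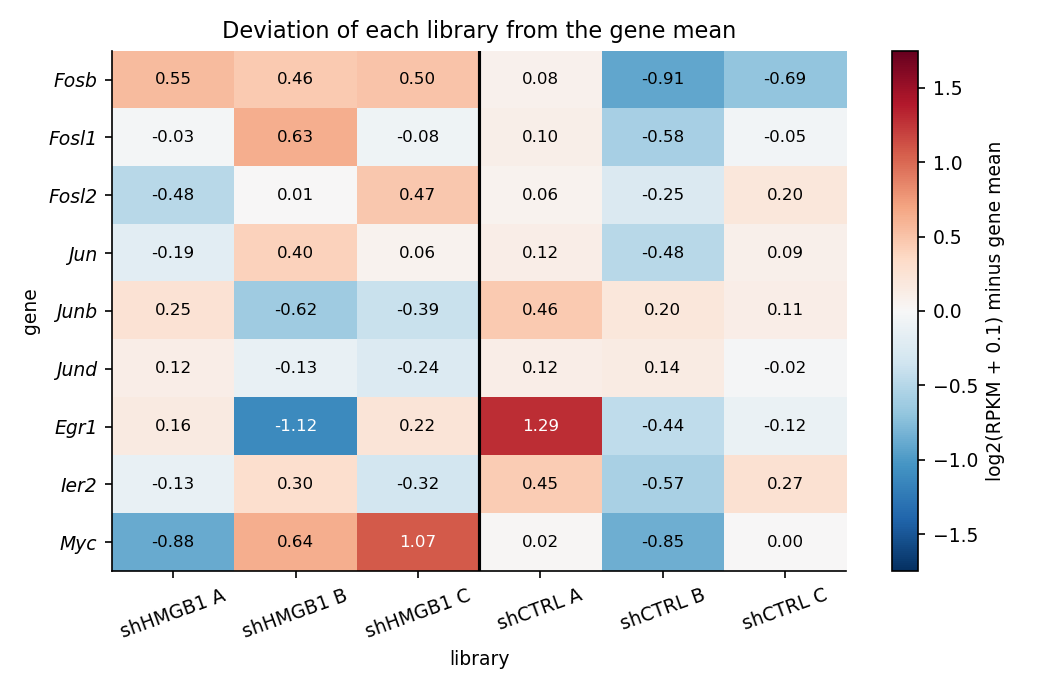
Deviation of each factor's log2(RPKM + 0.1) from its own mean over the 6 libraries, with the shHMGB1 libraries left of the shCTRL libraries and the value printed in each cell. The column of shCTRL B is negative for 7 of the 9 factors, and Egr1 in shCTRL A (1.29) and Myc in shHMGB1 C (1.07) are the highest cells.

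The genes nearest to Jun and Myc were sought by the root-mean-square difference of mean-centred log2 levels over the 6 libraries. For Jun they were Agpat1 (0.04), Atp2b1 (0.05) and Mat2a (0.06), against a spread of 0.27 for Jun itself. Agpat1 had 28.1, 40.0 and 32.3 RPKM in shHMGB1 A, B and C and 34.7, 21.1 and 33.5 RPKM in shCTRL A, B and C. For Myc they were Nr2c2ap (0.06), Ywhae (0.13) and Preb (0.13), against 0.72 for Myc itself. Nr2c2ap had 2.48, 7.58 and 9.71 RPKM in shHMGB1 and 4.45, 2.58 and 5.00 RPKM in shCTRL. Among 11669 tested genes these are the closest over 6 libraries, and nothing about shared function or control follows.

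Genes around the factors were described as 7 lists, and 0 genes of any list passed the adjusted threshold. At an unadjusted p under 0.05 there were 3 of 26 among the other immediate early genes, 3 of 13 among the feedback inhibitors, 3 of 15 among the AP-1 targets, 1 of 9 among the AP-1 partners, 1 of 20 among the MYC targets, 0 of 23 in the MAP kinase cascade and 0 of 9 among the MYC partners, beside 7.91% of all genes. In the same order, groups did not overlap, in either direction, for 2, 3, 3, 1, 1, 1 and 0 genes. Over all tested genes 6.90% were higher and 7.07% lower without overlap. The genes named below had the smallest p of their list in each direction, a choice that favours separated groups. AP-1 partners of the ATF, BATF, JDP and small MAF kind had 9 of 12 genes tested, 6 positive and 3 negative, with a median log2 fold change of 0.14, which was 0.00 to 0.18 with 1 library left out and -0.25 with a mean of at least 5 RPKM. Jdp2, a repressor that pairs with Jun, was at 16.8 ± 3.26 RPKM in shHMGB1 and 24.0 ± 4.07 RPKM in shCTRL (SD, n = 3 each) with a log2 fold change of -0.52 and groups that did not overlap (limma, adjusted p = 0.602). Mafg, a small MAF protein's gene, averaged 10.3 RPKM in shHMGB1 and 7.53 RPKM in shCTRL, and Atf7 averaged 2.83 RPKM in shHMGB1, with library C alone at 5.93 RPKM, and 1.46 RPKM in shCTRL. Atf2, a partner of Jun at its own promoter, was at 10.2 ± 1.60 RPKM in shHMGB1 and 12.1 ± 1.41 RPKM in shCTRL.

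Of 28 other immediate early genes 26 were tested, 13 positive and 13 negative, with a median of 0.00. Cebpb, a leucine zipper factor of inflammatory genes, had the smallest p of the list. It was at 26.3, 26.3 and 28.3 RPKM in shHMGB1 A, B and C and 39.6, 46.0 and 38.9 RPKM in shCTRL A, B and C, without overlap, and its log2 fold change was -0.62 (limma, adjusted p = 0.364). Srf, the serum response factor that binds CArG boxes, was at 27.0 ± 4.49 RPKM in shHMGB1 and 19.9 ± 2.35 RPKM in shCTRL (adjusted p = 0.612 in limma), also without overlap. Ctgf, a secreted matrix protein induced by YAP and TGF-beta, stood at 33.5, 47.4 and 17.1 RPKM in shHMGB1 and 21.4, 4.85 and 2.11 RPKM in shCTRL. Its log2 fold change of 2.29 had an adjusted p of 0.530, and shCTRL A lay above shHMGB1 C. Klf2 was at 2.25 ± 0.371 RPKM in shHMGB1 and 2.83 ± 1.07 RPKM in shCTRL.

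The MAP kinase cascade and its transcription factors had 23 of 24 genes tested, 17 positive and 6 negative, with a median of 0.13. Mkl1, an actin-sensing coactivator of SRF, was at 20.2 ± 11.0 RPKM in shHMGB1 and 10.9 ± 2.19 RPKM in shCTRL. Its relative Mkl2 was at 12.4 ± 8.94 RPKM in shHMGB1 and 6.05 ± 1.28 RPKM in shCTRL, with shHMGB1 C the highest library for both. Mapk9, the gene of JNK2, was at 17.6 ± 1.03 RPKM in shHMGB1 and 18.4 ± 1.31 RPKM in shCTRL.

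Among feedback inhibitors of MAP kinase signalling 13 of 14 genes were tested, 8 positive and 5 negative, with a median of 0.15, which was 0.36 without shHMGB1 A and 0.01 without shCTRL B. Dusp5, a nuclear MAP kinase phosphatase, was at 8.41, 13.4 and 10.6 RPKM in shHMGB1 A, B and C, against 6.68, 5.81 and 6.92 RPKM in shCTRL A, B and C. Its groups did not overlap, with a log2 fold change of 0.71 and an adjusted p of 0.465 in limma. Spry4, a Sprouty inhibitor of receptor signalling, was likewise without overlap. It stood at 1.20 ± 0.487 RPKM in shHMGB1 and 0.433 ± 0.134 RPKM in shCTRL, on 14 to 156 reads per library. Its shCTRL mean was under the filter of 0.5 RPKM, so Spry4 was tested only through its shHMGB1 level. Its place in the counts of this list is therefore not independent of the filter. Dusp6 was at 10.1 ± 3.14 RPKM in shHMGB1 and 11.2 ± 3.58 RPKM in shCTRL, and Dusp10 was at 53.6 ± 7.01 RPKM in shHMGB1 and 60.5 ± 7.01 RPKM in shCTRL.

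AP-1 targets had 15 of 18 genes tested, 11 positive and 4 negative, and a median of 0.35, the highest of the 7 lists. Hmox1, the heme oxygenase also driven by NRF2, was at 44.6, 98.8 and 68.2 RPKM in shHMGB1 and 35.0, 16.8 and 35.8 RPKM in shCTRL, without overlap and with a log2 fold change of 1.28 (limma, adjusted p = 0.475). Il6 was at 0.753 ± 0.379 RPKM in shHMGB1 and 1.33 ± 0.773 RPKM in shCTRL, and Vegfd was at 13.9 ± 1.32 RPKM in shHMGB1 and 15.2 ± 1.43 RPKM in shCTRL. With the ribosomal share as a covariate the list's median was 0.20.

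MYC partners and antagonists had 9 of 12 genes tested, 5 positive and 4 negative, with a median of 0.05. Mlxip was at 3.33 ± 3.32 RPKM in shHMGB1, where library C alone reached 7.15 RPKM, and at 1.50 ± 0.159 RPKM in shCTRL. Mxd4, a MAX-binding antagonist of MYC, was at 8.48 ± 1.22 RPKM in shHMGB1 and 11.2 ± 3.84 RPKM in shCTRL, and the log2 fold changes of Mga and Zbtb17 were 0.07 and -0.11. All 20 MYC targets were tested, 10 positive and 10 negative, with a median of 0.00. Polr1b, a subunit of RNA polymerase I, was at 10.3, 10.3 and 9.36 RPKM in shHMGB1 and 9.13, 6.83 and 6.19 RPKM in shCTRL, without overlap (limma, adjusted p = 0.623). Srm averaged 47.8 RPKM in shHMGB1 and 40.0 RPKM in shCTRL, while Npm1 averaged 589 RPKM in shHMGB1 and 744 RPKM in shCTRL and Nme1 18.7 RPKM in shHMGB1 and 21.3 RPKM in shCTRL.

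**Figure D5:**
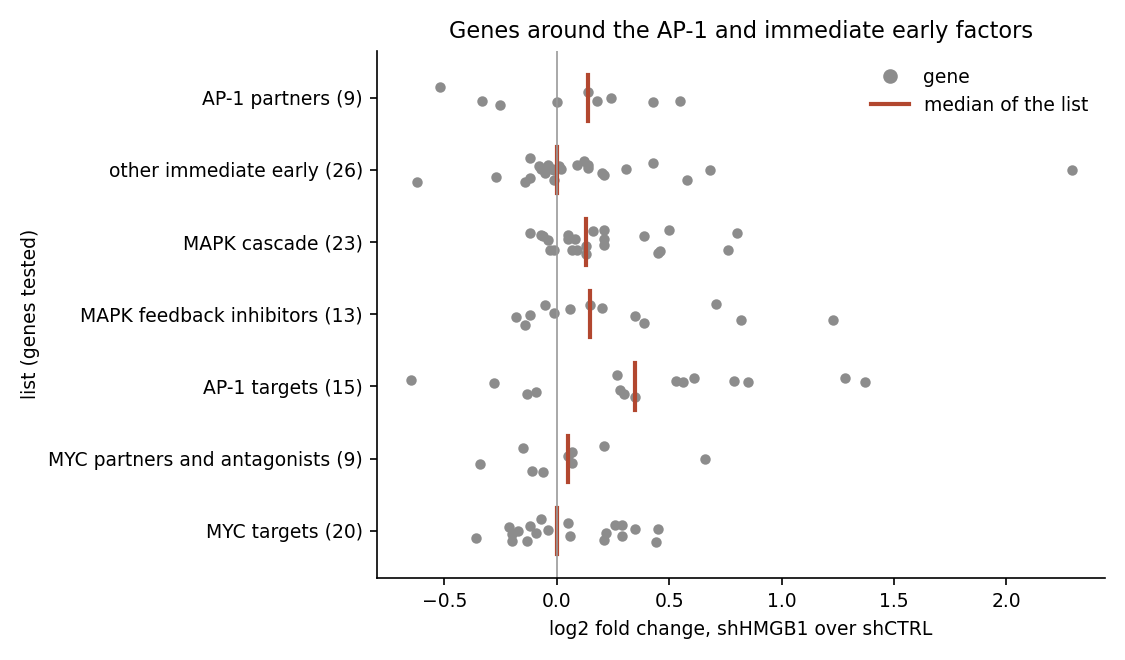
Log2 fold changes, shHMGB1 over shCTRL, of every tested gene in 7 lists around the factors (points, shifted up or down only to separate them), with a line at each list's median. The medians lie between 0.00 and 0.35, and the point at 2.29 is Ctgf.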

How the data were processed

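The deposited table holds log2 RPKM, 1 value per gene and library, and the submitters' processing notes list Trimmomatic 0.32, STAR 2.5.3a, featureCounts, edgeR, mm10 and GRCm38 for the authors' steps. The gene model behind the counting, the use of strand and any gene filter are not given there. Each of the 6 columns bore a sample's name. The deposited values were raised as powers of 2 and tested with limma 3.58.1 (R 4.3.3) on log2(RPKM + 0.1) for genes whose mean reached 0.5 RPKM, with group as the only term, eBayes with trend and robust, two-sided, and Benjamini-Hochberg adjustment at 0.05. This left out 465 genes, and the pseudocount understates changes of low genes. An exact permutation test of 3 against 3 cannot give a p under 0.1.

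Whole reads were recovered from the steps of low values after a prior of 0.25 reads, with a gene length that made all 6 values whole within 0.02 reads for 12133 of 12134 genes, and 0 of 500 genes with wrong library sizes. They served for reads per gene and for voom. The scaling behind the values differs from those read totals by factors of 0.845 to 1.09. Read recovery and limma were tested on simulated data.

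The members and lists were chosen with earlier results of these data known. Named are all members, from each list the genes past the threshold and the 2 with the smallest p in each direction, the 3 genes nearest to Jun and Myc, and Hmgb1. Likeness to Fos, which was also planned, was not analysed here. The values of 2 list genes that the rule names are not reported here. Alternatives were other pseudocounts, filters, scalings and moderation, array quality weights, voom, the replicate letter as a block, each library left out, the deposited log2 values with nothing added, and the ribosomal share as a covariate.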

Additional observations from a re-analysis of the deposited data

How the results depend on the processing

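Under 19 alternatives, 0 members and 0 genes of the 7 lists passed the adjusted threshold in any. With a mean of at least 5 RPKM, or without shHMGB1 B, shCTRL B or shCTRL C, no gene passed, the hairpin's target Hmgb1 included. The absence of members in those fits therefore says little about them. Of 168 fold changes of members under alternatives, 151 kept their sign, and Fosb (0.43 to 1.31), Fosl1 (0.12 to 0.71) and Junb (-0.76 to -0.15) kept it in every alternative that tested them. Against 3 genes changed in all, 0 were called with a mean of at least 5 RPKM, 5 with equal sums of RPKM, 5 with equal medians, 21 with array quality weights, 5 with the ribosomal share as a covariate, and 0 to 8 when 1 library was left out, with 8 without shHMGB1 A and 0 without shHMGB1 B, shCTRL B or shCTRL C. With equal sums the median over all genes was 0.36 and that of the members 0.35, so Fosl2 (0.35), Jund (0.19) and Ier2 (0.24) turned positive by about that common shift or less. Fosl2, at 0.00 as reported, was 0.01 with quantile normalization, 0.01 with array quality weights and 0.001 with voom. Ier2 was 0.03 with array quality weights. With the ribosomal share as a covariate Jun was -0.01, against 0.18 as reported, and Myc -0.16, against 0.56. Leaving out 1 library gave -0.24 to 0.24 for Fosl2, -0.01 to 0.32 for Jun, -0.83 to 0.03 for Egr1 and -0.41 to 0.10 for Ier2. The cause was not tested. With 1 library left out, list medians were 0.00 to 0.18 for AP-1 partners, -0.06 to 0.15 for other immediate early genes, 0.04 to 0.15 for the MAP kinase cascade, 0.01 to 0.36 for feedback inhibitors, 0.27 to 0.46 for AP-1 targets, -0.10 to 0.11 for MYC partners and -0.08 to 0.08 for MYC targets. The lowest adjusted p of any member was 0.144, for Junb with array quality weights. Deviations of same-letter libraries had correlations of 0.15, -0.10 and 0.48 for A, B and C, and not every library was nearest its own letter. The labels do not say whether the letters pair the samples. Correlations from 3 libraries per group cannot decide it. The replicate block called 7 genes, none of them a member. The covariate and the values with nothing added were chosen after seeing the data. Depth limits Fosb most, with 11 to 72 reads per library.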
